A study of Mus musculus with 27 samples.

Results

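Naive bone marrow-derived macrophages (BMDM) were compared with BMDM that had met CpG DNA and were then given CpG DNA again. The comparison rests on 6 of the series' 27 arrays, 3 of naive cells and 3 of CpG re-stimulated cells, chosen by their sample labels alone. The BMDM came from the marrow of female C57BL/6 mice aged 6 to 8 weeks and were grown for 7 days in medium conditioned by L929 cells, a fibroblast line that secretes the macrophage growth factor CSF1. Before any exposure they were moved to medium without the L929 supplement. Naive cells were left untreated. CpG re-stimulated cells were exposed to CpG DNA for 24 h, washed, rested in fresh medium, and given the same ligand for 4 h before RNA was taken. CpG acute cells, used here to set levels side by side, had the 4 h exposure alone, and Pam3CSK4 re-stimulated cells had both exposures to Pam3CSK4, a lipopeptide that TLR2 recognises. The labels give the CpG dose as 100 µM and the Pam3CSK4 dose as 100 ng/ml, and the study's methods state a CpG dose lower than the labels do, so the dose is uncertain. The naive cells had no mock exposure in the labels. CpG therefore cannot be told apart from the added wash, medium change or any added time without the L929 supplement. Re-stimulated cells may also have spent longer without it than acute cells, and the part of this was not tested. The design has no array of cells given the first exposure alone. The sources differ on whether replicates were single mice or pooled marrow, and the p-values below then measure the spread between these cultures, which may be partly technical.

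CpG DNA carries unmethylated CG pairs, which are common in bacterial and rare in mammalian DNA. It is sensed in endosomes by Toll-like receptor 9 (TLR9), which UNC93B1 brings there from the endoplasmic reticulum. TLR9 recruits the adapter MYD88 with the kinases of the IRAK family, and the pathway then divides between NF-kB and AP-1, which drive cytokine and chemokine genes, and interferon regulatory factors, which drive interferon genes. A macrophage that has met a Toll-like receptor ligand is called tolerized where it answers the next exposure with less of some cytokines, a state in which other genes keep or gain their response.

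All values are log2 normalised intensities of 1 probe per gene, so that 1 unit is a doubling, and levels are compared between arrays for a gene and never between genes. On 5 of the 6 arrays 44.3% to 49.4% of the 55681 non-control probes were well above background, and on the third naive array 74.6% were. That array also correlated less with naive replicates 1 and 2 (0.959 and 0.961) than these did with each other (0.99). Of the 1162 genes called lower after re-stimulation it was the lowest naive array for 775, against 188 and 199 for naive replicates 1 and 2. Of the 925 called higher it was the highest naive array for 382, against 222 and 321. An outlying array can often be the extreme one in either direction, and the share over all tested genes was not counted. The counts for genes called higher therefore do not show that it stood closer to the re-stimulated arrays. All 15 macrophage markers measured, among them Csf1r, Emr1 and Itgam, were well above background on all 6 arrays, and their summed intensity was 20.2 to 20.33 in naive and 20.16 to 20.34 in re-stimulated cells on the log2 scale. The summed intensity of 12 neutrophil markers spread from 12.51 to 16.79 in naive cells and from 15.05 to 16.42 in re-stimulated cells. That of 12 T and NK cell markers lay between 11.34 and 12.02 on the 6 arrays and was carried largely by Cd4 (means of 11.4 and 11). Of these 12 markers, 5 were above background on all naive and 4 on all re-stimulated arrays. Of 8 fibroblast markers, 2 were above background on all naive and 4 on all re-stimulated arrays, with summed intensities of 7.03 to 8.354 and 8.179 to 8.918. Of 8 B cell markers 3 and 2 were above background on all arrays of the naive and the re-stimulated group, and of 8 mast cell and erythroid markers 5 were above it on no array of either group. The sum of 8 dendritic cell markers, 16.21 to 16.31 in naive and 14.87 to 15.43 in re-stimulated cells, was carried by Siglech, which fell by 1.06 (adjusted p = 0.051 with the slide as a block) and differed by 0.04 with the arrays set to equal medians. Of the other markers, Cd14, Zbtb46 and Ccr9 rose by 1.14, 2.24 and 2.24, of which Zbtb46 and Ccr9 were not called with the block (adjusted p = 0.085 and 0.0527). Lum and Pdgfrb, well above background on no naive array and on all re-stimulated arrays, rose at least 16.8-fold and 15.1-fold, and Mertk, Cd68 and Laptm5 fell by 2.07, 1.31 and 1.1 (Cd68 adjusted p = 0.0911 with the block). The part of these markers in the results was not tested.

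Of 28176 probes tested, 3691 (13.1%) differed between naive and CpG re-stimulated cells at an adjusted p below 0.05 and a fold of at least 1.5 by limma, of which 1874 were higher and 1817 lower after re-stimulation. Counted by gene, with the probe of highest mean, 925 of 14101 genes (6.56%) rose and 1162 (8.24%) fell. The rises reached further than the falls, with 679 probes at least 4-fold higher and 440 at least 4-fold lower. Naive and re-stimulated arrays overlapped for none of the 3691 called probes, and 11045 of the 28176 tested probes did not overlap. The split depends on the scaling. With the arrays set to equal medians in place of quantile normalisation the median of all tested genes moved from -0.03 to 0.66, 79.7% in place of 50.8% of the called probes were higher, and 1066 genes rose and 296 fell. Under that scaling the sign turned for 151 of the genes called lower and for 0 of those called higher. Leaving out any 1 of the 6 arrays moved the number of called probes by more than 1.5 times, to 7030 without the third naive array and to 1018, 925, 808, 704 and 1120 without the first naive, the second naive, the first re-stimulated, the second re-stimulated and the third re-stimulated array. With the replicate number, which marks the slide, as a block 2517 probes were called and 641 genes rose and 796 fell. Of the 237 called genes named or listed here, 76 were called in all 6 fits with 1 array left out. Without the third naive array 0 of them lost the call and the fold moved by more than 1.5 times for 33, while leaving out each of the other arrays took the call from 132 to 152 and moved the fold for 1 to 15. Without that array the rises were larger for Ccl3 (4.43), Cxcl10 (8.59), Ch25h (7.03), Clec4e (5.41), Batf (3.56) and Tnfsf15 (4.68) and smaller for Arg2 (2.47), Inhba (3.17), Slc7a2 (4.53) and Tnfsf10 (2.29), and Gprc5c, Ier5l, Myadml2 and Vipr1 fell further. For other named genes that it moved so, the value without it stands beside the gene.

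Inflammatory cytokines had the highest median change of the 23 lists. Of 28 tested members of this list, 19 rose and 0 fell, against 6.56% and 8.24% of all genes, and the median change of the list was 3.66, beside -0.03 over all genes. Il6, whose product drives the acute phase response, lay at 2.84, 2.47 and 3.55 on the naive arrays and at 14.95, 15.48 and 15.87 on the re-stimulated arrays. Its rise of 12.48 ± 0.36 (SE; limma adjusted p = 0.000387) was the largest of all called genes, and 1 of the 3 naive arrays had it above background. Il1b, the precursor of IL-1β that inflammasomes cleave, went from 4.70, 6.71 and 6.64 to 15.18, 16.28 and 15.79, a rise of 9.73 ± 0.61 (adjusted p = 0.00216). Il12b, the p40 subunit shared by IL-12 and IL-23, stood at 3.02, 3.88 and 3.11 in naive and at 12.82, 11.09 and 13.79 in re-stimulated cells, and rose by 9.23 ± 0.69 (adjusted p = 0.00346). In each of these genes the re-stimulated arrays lay far above the naive ones, and the groups overlapped for no called probe.

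Tnf, the founding member of the TNF family, differed more among the naive arrays. Its naive values were 9.0, 9.53 and 13.44 and its re-stimulated values 15.74, 15.06 and 16.34, a rise of 5.05 ± 1.18 with an adjusted p of 0.0423. The third naive array lay between the other naive arrays and the re-stimulated ones, and without it the rise was 6.45. Il10, an anti-inflammatory cytokine, had the same form, with 4.73, 5.49 and 8.45 in naive and 10.88, 9.79 and 11.43 in re-stimulated cells (a rise of 4.48 ± 1.00, adjusted p = 0.0388, and 5.59 without that array).

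Several cytokines rose from values near background. Ifnb1, which encodes interferon-β, lay at 3.13, 2.95 and 2.93 in naive and at 10.37, 9.04 and 10.03 in re-stimulated cells (a rise of 6.81 ± 0.36, adjusted p = 0.0014). Edn1, the vasoconstrictor endothelin-1, rose by 8.12, and Il1a by 6.10. The growth factors Csf3 and Csf2, which drive granulocyte and macrophage output, rose by 5.13 and 3.46. Il1f6 (Il36a) was above background on none of the naive arrays and on all re-stimulated arrays, a rise of at least 38.7-fold, and Il12a, the p35 subunit of IL-12, was above it on none of the naive and on 2 of the 3 re-stimulated arrays, at least 5.19-fold higher. Further rises were 4.53 for Il1f9, 4.80 for Il19, 3.92 for Inhba, 3.86 for Tnfsf15, 3.06 for Tnfsf9, 3.00 for Tnfsf10 and 1.32 for Il27. The remaining members did not pass the test, among them Il1rn, the antagonist of the IL-1 receptor (1.08, adjusted p = 0.209), Il15 (-0.60), Il18 (-0.81) and Tgfb1 (-0.27). With the slide as a block 17 members rose, and Il27 (adjusted p = 0.065) and Tnfsf10 (0.0973) were no longer called. Over the fits that each left out 1 array 11 to 21 members rose, and 10 of the 19 were called in all 6 of them.

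Chemokines, which call leukocytes to a site, rose next. Of 23 tested members 13 rose and 0 fell, with a median of 3.45. Among the ligands of CXCR2 that attract neutrophils, Cxcl3 lay at 2.90, 4.10 and 5.76 in naive and 12.83, 14.03 and 13.20 in re-stimulated cells (a rise of 9.10 ± 0.74, adjusted p = 0.00409). Cxcl1 went from 4.22, 5.73 and 9.10 to 13.04, 14.13 and 14.25 and Cxcl2 from 4.85, 6.49 and 9.73 to 13.13, 13.77 and 14.20. In these 3 genes the third naive array was the highest of the naive arrays, and the rises of Cxcl1 (7.46 ± 1.21) and Cxcl2 (6.67 ± 1.19) had wide errors. Without that array Cxcl3, Cxcl1 and Cxcl2 rose by 9.86, 8.84 and 8.03. Cxcl5, of the same group, was above background on no naive array and on all re-stimulated arrays, at least 95-fold higher.

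Ccl5, which attracts T cells and monocytes, had the tightest pattern of the chemokines, with 11.33, 11.92 and 11.27 in naive and 18.46, 18.40 and 18.44 in re-stimulated cells and a rise of 6.93 ± 0.22 (adjusted p = 0.000387). Its re-stimulated values lie near the top of the quantile scale, where ranks 1 and 2 from the brightest were 18.82 and 18.72 on each re-stimulated array. That scale gives a rank the same value on every array, which may narrow their spread and the error. The CXCR3 ligand Cxcl10 lay at 6.89, 8.89 and 9.96 and at 16.09, 16.10 and 17.25, a rise of 7.90 ± 0.80 (adjusted p = 0.00664), and Cxcl9, of the same receptor, was at least 24.4-fold higher against naive arrays that were all below background. The monocyte attractants Ccl2, Ccl7 and Ccl12 rose by 3.45, 4.21 and 5.14, the macrophage inflammatory proteins Ccl3 and Ccl4 by 3.66 and 3.94, and the CCR4 ligand Ccl17 by 3.19. The slide block left 13 members called, with Ccl7 at an adjusted p of 0.0584, and Ppbp then passed it (0.0404, against 0.342 without it). Among the 10 tested chemokines that did not pass the test without the block were Pf4 (-0.11), Ccl9 (-0.18), Ccl6 (-0.83) and Cxcl16 (0.47). Between 7 and 13 chemokines rose when 1 array was left out, and 7 of the 13 were called in all 6 fits.

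**Figure D1:**
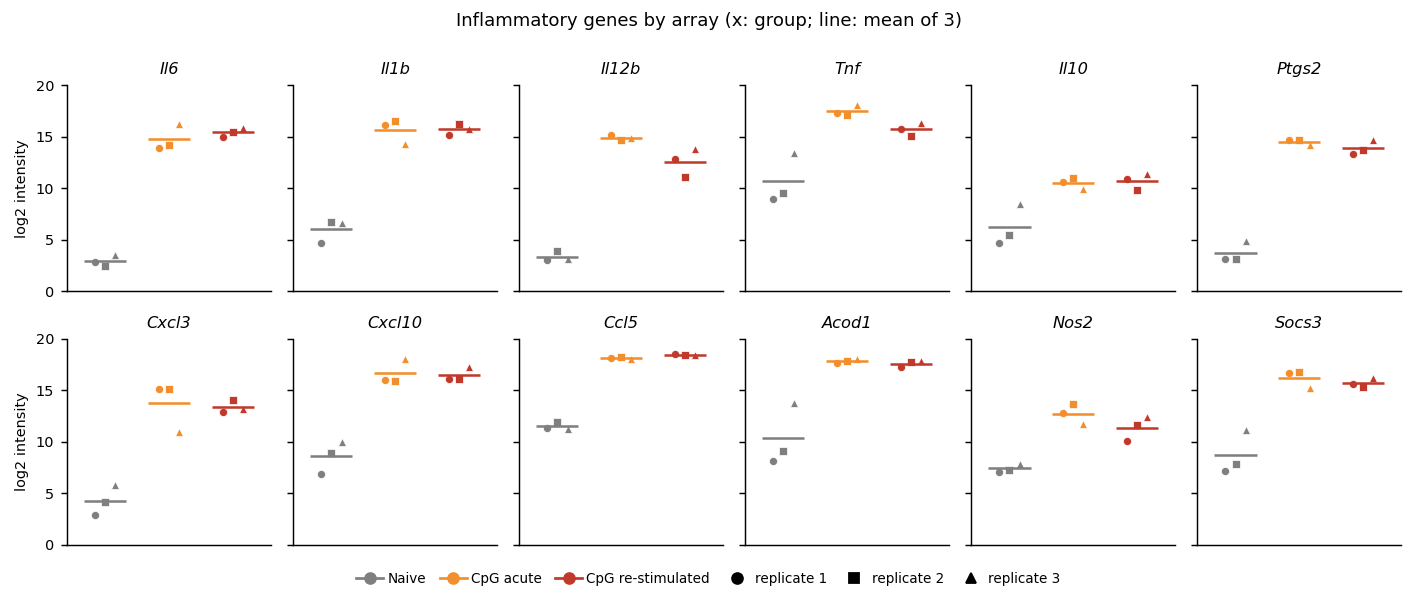
Log2 normalised intensity of 12 inflammatory genes on each array of naive, CpG acute and CpG re-stimulated cells (circle, square and triangle for replicates 1, 2 and 3, short line for the mean). Il6 lay at 2.95 on average in naive, 14.76 in acute and 15.44 in re-stimulated cells, and the third naive array (triangle) stood above the other naive arrays for Tnf and Irg1, drawn under its current name Acod1.

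The promoters of these genes are shown because the members of several lists that rose share short sequences that NF-kB and interferon-stimulated factors are known to bind. The windows are from RefSeq on GRCm38.p6, 250 bases before to 50 bases after each gene's start, and the stretches below lie within them. Capitals mark matches on either strand to the kB motif GGNNNTTCC, to the interferon-stimulated response element (ISRE) GAAANNGAA or, in Cxcl10, to the AP-1 motif TGANTCA, and adjoining capitals in Ifit1 and Isg15 are overlapping matches. Cxcl1, Cxcl3 and Il6 lie on chromosome 5 in the plus direction, at chr5:90891125-90891244, chr5:90785981-90786100 and chr5:30012994-30013113. Cxcl10 at chr5:92348949-92349119, Isg15 at chr4:156200838-156200928 and Nfkbia at chr12:55492667-55492867 are given from the minus strand and Ifit1 at chr19:34640749-34640829 from the plus strand, all 5′ to 3′.
Il6: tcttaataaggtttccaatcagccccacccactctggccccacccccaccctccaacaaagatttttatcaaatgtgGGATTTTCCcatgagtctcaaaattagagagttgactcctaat
Cxcl1: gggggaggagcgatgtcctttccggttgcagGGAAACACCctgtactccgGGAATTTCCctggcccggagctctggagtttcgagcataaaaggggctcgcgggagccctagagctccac
Cxcl3: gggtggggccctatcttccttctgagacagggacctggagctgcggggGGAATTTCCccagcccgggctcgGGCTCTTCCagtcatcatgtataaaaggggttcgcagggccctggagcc
Nfkbia: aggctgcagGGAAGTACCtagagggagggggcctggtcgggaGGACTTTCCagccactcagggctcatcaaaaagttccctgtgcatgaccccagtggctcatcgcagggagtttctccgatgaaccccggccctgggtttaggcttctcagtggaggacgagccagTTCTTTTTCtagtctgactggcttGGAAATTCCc
Cxcl10: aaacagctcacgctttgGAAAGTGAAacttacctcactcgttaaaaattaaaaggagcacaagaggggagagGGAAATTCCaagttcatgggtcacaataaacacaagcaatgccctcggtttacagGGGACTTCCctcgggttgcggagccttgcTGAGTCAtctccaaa
Ifit1: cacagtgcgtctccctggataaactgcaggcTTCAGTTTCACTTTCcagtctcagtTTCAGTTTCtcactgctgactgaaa
Isg15: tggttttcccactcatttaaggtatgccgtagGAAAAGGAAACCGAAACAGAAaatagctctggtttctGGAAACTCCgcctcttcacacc

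The kB match of Il6 begins 43 bases before the gene's start, those of Cxcl1 at 89 and 70 bases before and those of Cxcl3 at 72 and 49 bases before, so that these CXCR2 ligands each hold a pair of matches. A kB match was found in 18.5% of all promoter windows, in 21.5% of those of tested genes, in 22.1% of 912 windows of genes that rose and in 21.1% of 1231 windows of genes that fell. By list, it stood in 52% of 25 windows of inflammatory cytokines, 53.3% of 15 of chemokines, 66.7% of 12 of NF-kB subunits and IkB proteins, 35.7% of 42 of the type I interferon response and 22.7% of 44 of mitosis genes. ISRE matches were in 8.56% of all windows, 9.76% of those of genes that rose, 6.9% of those that fell and 57.1% of those of the type I interferon response. The windows of Il1b, Il12b and Socs3 hold neither motif. A match describes letters only, and the lists were drawn from genes known for these factors.

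Effectors of the activated macrophage rose broadly. In the list of antimicrobial and inflammatory effectors 22 of 48 tested members rose and 1 fell (median 2.07). Ptgs2, the inducible cyclooxygenase that starts prostaglandin synthesis, lay at 3.11, 3.1 and 4.86 in naive and 13.36, 13.67 and 14.68 in re-stimulated cells, a rise of 10.22 ± 0.59 (adjusted p = 0.00173), next to Il6 the largest among called genes. Nos2, the inducible nitric oxide synthase, went from 7.05, 7.28 and 7.88 to 10.08, 11.59 and 12.39 (a rise of 3.95 ± 0.60, adjusted p = 0.016). Enzymes around its substrate arginine rose with it, namely Ass1, which remakes arginine, by 2.97, the transporter Slc7a2 by 5.24, and the arginases Arg1 and Arg2, which compete for it, by 7.22 and 3.09. Irg1 (Acod1), which makes itaconate, stood at 8.09, 9.08 and 13.77 in naive and 17.26, 17.68 and 17.79 in re-stimulated cells, again with the third naive array above the other naive arrays (a rise of 7.26 ± 1.42, adjusted p = 0.0278, and 8.99 without that array).

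Secreted proteins of host defence rose as well. Saa3, a serum amyloid A protein, lay at 9.77, 10.07 and 13.51 in naive cells and at 18.72, 18.72 and 18.72 in re-stimulated cells and rose by 7.60 ± 0.98 (8.80 without the third naive array). On each re-stimulated array its probe was of rank 2 from the brightest, so that the quantile scale gives these arrays the same value and sets a limit to it. Lcn2, which binds bacterial siderophores, rose by 7.12 ± 0.72, Hp, the haemoglobin scavenger haptoglobin, by 5.78 ± 0.85 (6.30 and 6.72 without the third naive array), and the protease inhibitor Slpi by 4.26 ± 0.50. Serpinb2, an inhibitor of plasminogen activators, rose by 8.13. Cd38, an enzyme that consumes NAD, rose by 6.43, Ch25h, which makes 25-hydroxycholesterol, by 6.20, and the lectin receptor Clec4e by 4.39. Lysozyme went the other way. Lyz1 fell by 0.65 (adjusted p = 0.045; 0.0924 with the block), and with equal array medians it was higher in place of lower, while Lyz2 had a change of -0.20 and did not pass. With the slide block Slc7a2 (0.0557) and Ptges (0.079), a prostaglandin E synthase that had risen by 1.25, lost their calls. Of the 23 called effectors, 9 were called in all 6 fits with 1 array left out.

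Genes that were in no list but led the ranking were Cfb, Shisa3 and U90926. Cfb, complement factor B of the alternative pathway, lay at 5.67, 6.04 and 6.98 and 14.39, 15.11 and 15.62 (a rise of 8.81 ± 0.45). Shisa3 was above background on no naive array and rose at least 334-fold. U90926 went from 2.90, 3.46 and 2.51 to 10.62, 11.74 and 11. In all 3 the naive and re-stimulated arrays did not overlap, as for every called probe.

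NF-kB subunits and their inhibitors rose in part. Of 11 subunits and inhibitors 5 rose and none fell (median 1.45). Nfkbia, the inhibitor IκBα that NF-kB induces and whose promoter holds the 3 kB matches printed above, went from 13.37, 13.69 and 15.53 to 17.02, 17.04 and 17.36 (a rise of 2.95 ± 0.57, adjusted p = 0.0268). Nfkbie rose by 2.40, Nfkb2 by 1.95, Nfkbib by 1.48 and Relb by 1.45 (adjusted p = 0.038; 0.0564 with the block). Rela (0.16), the main activating subunit, and Nfkb1 (0.99, adjusted p = 0.0676) did not pass. Nfkbiz lay at 6.78, 7.63 and 11.81 in naive and 12.73, 12.44 and 12.19 in re-stimulated cells, a change of 3.72 that also did not pass (adjusted p = 0.107). Without the third naive array Nfkbiz rose by 5.25 and Nfkbia by 3.61, and 8 members rose, where 0 or 1 did without each of the other arrays.

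In the TLR9 pathway, upstream of NF-kB, 2 of 24 members rose and 2 fell, shares near those over all genes. With equal array medians 4 rose and 0 fell, with 1 array left out 0 to 5 rose and 0 to 4 fell, and 0 of the 4 called were called in all 6 of those fits. Tlr9 lay at 10.87, 10.94 and 10.48 in naive and 10.34, 10.29 and 10.12 in re-stimulated cells (-0.51, adjusted p = 0.133). The adapter Myd88 rose by 1.55 and Ikbkg, the regulatory subunit of the IkB kinase, by 1.14. Slc15a4, an endolysosomal transporter needed for TLR9 signalling in some cells, fell by 1.23 and Tab1, which activates the kinase TAK1, by 1.00. Among 14 other Toll-like receptors and co-receptors 4 rose, Tlr2 by 1.97 (adjusted p = 0.051 with the block), Cd14 by 1.14, Tlr6 by 1.00 and the adapter Ticam2 by 2.48 (0.0564 with the block). Tlr13, which senses bacterial ribosomal RNA, fell by 1.81, and Ly86, which pairs with CD180, by 2.04. With 1 array left out 0 to 5 of these receptors rose and 0 to 5 fell.

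Some inhibitors that TLR signalling induces rose. Of 25 feedback inhibitors 7 rose and 1 fell (median 0.75). Socs3, which blocks gp130 cytokine signalling, lay at 7.14, 7.82 and 11.15 in naive and 15.64, 15.28 and 16.22 in re-stimulated cells (a rise of 7.01 ± 1.03, adjusted p = 0.0151, and 8.23 without the third naive array). Socs1, which blocks interferon signalling, went from 8.10, 7.62 and 7.59 to 12.53, 12.76 and 13.51 (a rise of 5.16 ± 0.31, adjusted p = 0.00174), with naive values much closer to each other than those of Socs3. The MAP kinase phosphatases Dusp2 and Dusp16 rose by 4.35 and 3.1 and Dusp1 by 1.53 (0.0679 with the block). Tnfaip3, the ubiquitin-editing enzyme A20, rose by 2.70, and Zc3h12a, the RNase regnase-1 that degrades cytokine mRNA, by 2.80 (0.0512 with the block; a rise of 3.63 without the third naive array). Cyld, a deubiquitinase, fell by 0.69 (adjusted p = 0.0371; 0.0777 with the block) and had the opposite sign with equal array medians. Sigirr (0.14), Tnip2 (-0.01) and Hmox1 (0.77) did not pass. With the block 5 members rose, without the third naive array 12 rose and 5 fell, and 3 of the 8 called members were called in all 6 fits with 1 array left out, where 3 was also the fewest that rose. Of 24 AP-1 and immediate early genes 5 rose, Maff by 4.36, Ier3 by 3.75, Batf by 2.85 (adjusted p = 0.0512 with the block), Fosl1 by 2.66 and Junb by 1.68, and 2 fell, among them Egr2 by 2.35. The share of these 24 that fell was near the 8.24% of all genes.

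Interferon-stimulated genes rose in part. Of 47 tested members of the type I interferon response 16 rose and 0 fell, with a median of 0.97, and 10 of the 16 were called in all 6 fits with 1 array left out. Ifit1, which binds foreign RNA and whose promoter holds overlapping ISRE matches, lay at 10.41, 10.50 and 10.24 in naive and 13.94, 13.62 and 14.42 in re-stimulated cells (a rise of 3.61 ± 0.24, adjusted p = 0.00265). Rsad2, which makes the antiviral nucleotide ddhCTP, went from 11.15, 11.50 and 10.47 to 14.19, 14.32 and 14.72 (a rise of 3.37 ± 0.31). Isg15, a ubiquitin-like modifier, went from 14.04, 14.26 and 13.96 to 16.78, 15.96 and 17.34 (a rise of 2.60 ± 0.36). These genes were above background on all naive arrays, and Ifnb1 on 1 of the 3. Gbp5, a guanylate-binding protein, rose by 5.35, Oasl1 by 4.19, the antiviral GTPase genes Mx2 and Mx1 by 3.28 and 2.65, and Cmpk2, a mitochondrial nucleotide kinase, by 2.22. Smaller rises were 2.55 for Zbp1, 2.38 for Gbp3, 2.19 for Herc6, 1.92 for Isg20, 1.59 for Ifih1, 1.46 for Igtp and 1.42 for Usp18. With the slide block Mx1 (0.0556), Zbp1 (0.0565), Gbp3 (0.0589) and Ifih1 (0.0667) were not called. None of 16 interferon regulatory factors and STATs passed, with Irf7 at 1.88 (adjusted p = 0.0716) and Irf8 at -1.35 (0.0502).

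Metabolic genes divided by pathway. Of 32 genes of glycolysis and the HIF-1 response 11 rose and 1 fell (median 0.72). With 1 array left out 3 to 15 rose, the most without the third naive array, and 3 of the 12 called were called in all 6 fits. Hif1a, the oxygen-sensing transcription factor, lay at 10.86, 10.43 and 10.45 in naive and 12.24, 12.11 and 12.44 in re-stimulated cells (a rise of 1.69 ± 0.20, adjusted p = 0.00928). Adm, the vasodilator adrenomedullin, rose by 4.60, the lactate exporter Slc16a3 by 2.21, the glucose transporter Slc2a1 by 1.58, and the glycolytic enzymes Hk2 and Pfkl by 1.68 and 1.68. The rises of Ldha (0.74), Eno1 (0.81) and Pgk1 (1.1) and the fall of Pfkfb4, which fell by 0.74, lost their calls with the slide block (adjusted p = 0.0714, 0.0624, 0.071 and 0.0842), and Pfkfb4 had the opposite sign with equal array medians. Cholesterol synthesis had a median of 1.02, but 3 of 25 members rose, among them Hsd17b7 by 1.80 and Nsdhl by 1.03, and 0 members were called with the block (adjusted p = 0.0725 and 0.0852 for these). With 1 array left out 0 to 14 rose, the most without the third naive array. Of the 4 called members 0 were called in all 6 of those fits. Srebf2, which drives this pathway, fell by 1.18 (0.0855 with the block). Of 26 NRF2 targets 5 rose and none fell, led by Slc7a11, the cystine importer (4.41), and followed by Mt2 (2.17), Me1 (1.80), Nqo1 (1.72) and Gsr (1.49). With the block 2 of these were called, without Me1, Nqo1 and Gsr (adjusted p = 0.0674, 0.0565 and 0.0554), and with 1 array left out 1 to 6 rose. Of 50 subunits of the respiratory chain 0 passed in either direction by limma, at most 2 rose in a fit with 1 array left out, and the median was -0.002. With Agilent's processed signal at the 75th percentile 7 rose, and with equal array medians the list's median was 1.07, beside 0.66 over all genes, and 0 passed.

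**Figure D2:**
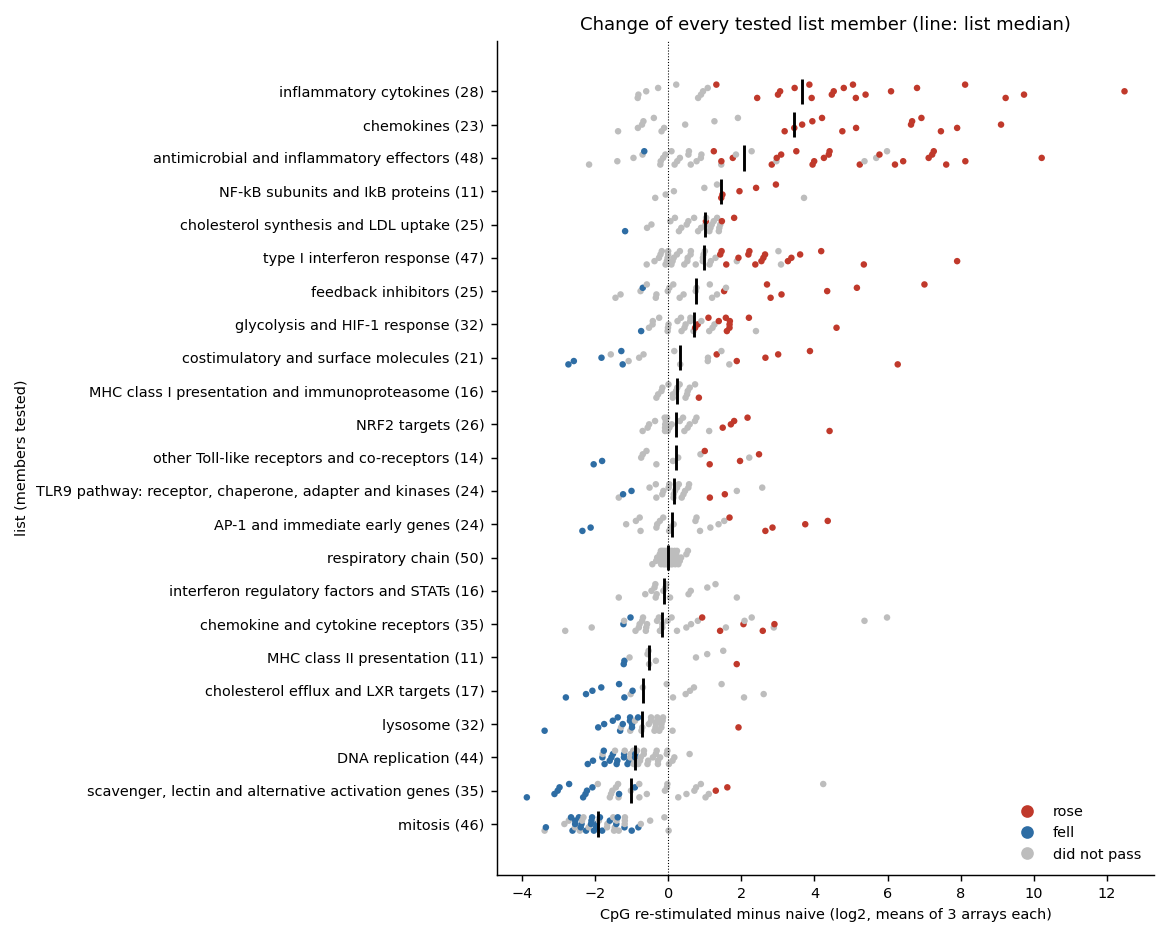
Difference in log2 normalised intensity, CpG re-stimulated minus naive, of every tested member of 23 gene lists (red for genes that rose, blue for genes that fell, grey for genes that did not pass, line for the list's median). The medians run from 3.66 for inflammatory cytokines to -1.92 for mitosis genes, and all 50 members of the respiratory chain are grey.

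The largest fall among the genes named by rank was that of Rasgrp3. This gene, an activator of Ras and Rap that has been tied to the restraint of TLR responses, lay at 10.01, 10.23 and 9.01 in naive and 3.46, 4.48 and 4.99 in re-stimulated cells and fell by 5.44 ± 0.49 (adjusted p = 0.0051). Mamdc2 went from 12.67, 11.87 and 10.79 to 6.68, 6.40 and 6.30 and fell by 5.32 ± 0.47. Fam198b (Gask1b) fell by 4.68, Ier5l by 4.45 and Nanos1 by 4.24. Mgll, the lipase that cleaves monoacylglycerols such as 2-arachidonoylglycerol, fell by 4.20, P2ry1, a receptor for ADP, by 4.12, Treml1 by 4.02 and the orphan receptor Gprc5c by 3.96. For 6 genes no re-stimulated array was above background, which gives a bound. Ankrd34a was at least 23.4-fold lower, Armc2 at least 22.6-fold, Fam117a at least 19.8-fold, Cmbl at least 18.5-fold, Vipr1, a receptor of vasoactive intestinal peptide, at least 17.6-fold and Myadml2 at least 13.2-fold (adjusted p = 0.0651 with the block).

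Many cell cycle genes fell. Of 46 mitosis genes 23 fell and none rose, against 8.24% of all genes, and the list's median change was -1.92. Ccnb2, a cyclin that activates CDK1 for mitosis, lay at 11.68, 11.91 and 10.31 in naive and 8.95, 7.95 and 6.97 in re-stimulated cells and fell by 3.34 ± 0.63 (adjusted p = 0.0253). Cdc20, which activates the anaphase-promoting complex, went from 10.75, 10.87 and 9.50 to 8.36, 8.15 and 7.43 and fell by 2.39 ± 0.45. Ndc80, of the outer kinetochore, fell by 2.37, Foxm1, which drives mitotic genes, by 2.08, the cyclins Ccna2 and Ccnb1 by 2.62 and 2.11, and Birc5 (survivin) by 2.55. The third naive array was the lowest naive array for Ccnb2, Cdc20 and Foxm1, and the highest for Ndc80. Without the third naive array 44 members fell, while 0 to 5 did without each of the other arrays. The slide block called 31, and with equal array medians the list's median was -1.31 with 13 members called lower. Incenp, which fell by 1.00 (adjusted p = 0.0687 with the block), had the opposite sign there.

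DNA replication genes fell in part. Of 44 members 16 fell and none rose (median -0.91). Rrm2, a subunit of ribonucleotide reductase, lay at 11.73, 11.81 and 11.27 on the naive and at 10.35, 9.21 and 8.65 on the re-stimulated arrays and fell by 2.20 ± 0.45 (adjusted p = 0.0307). Subunits of the replicative helicase fell, Mcm7 by 2.06, Mcm2 by 1.51, Mcm6 by 1.39 and Mcm4 by 1.20 (Mcm2, Mcm6 and Mcm4 with the block adjusted p = 0.0804, 0.0938 and 0.0624). The calls were near the threshold. With the slide block 6 fell and Pcna was not called (adjusted p = 0.0691), without the third naive array 29 fell, and without each of the other arrays 1 to 6. With equal array medians the list's median was -0.09 and 0 members were called lower. There Pcna, the sliding clamp, which fell by 0.90 under quantile scaling, turned to a higher value.

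Genes of lipid handling, clearance and alternative activation fell in part. Of 35 scavenger, lectin and alternative activation genes 11 fell and 2 rose (median -1.02). Mrc1, the mannose receptor, lay at 12.00, 12.62 and 11.35 in naive and 9.28, 8.25 and 6.85 in re-stimulated cells and fell by 3.87 ± 0.66 (adjusted p = 0.0205). Trem2, a lipid-sensing receptor, went from 17.67, 17.38 and 16.70 to 14.27, 14.15 and 14.01 and fell by 3.11 ± 0.28 (adjusted p = 0.00507). Gas6, the bridging ligand for the uptake of dead cells, fell by 3.02 and its receptor Mertk by 2.07. In lipid metabolism Lpl, lipoprotein lipase, lay at 17.04, 17.08 and 17.00 and 14.67, 14.86 and 14.61 and fell by 2.33 ± 0.16 (adjusted p = 0.00265), the nuclear receptor Pparg fell by 2.26 and Fabp4, a carrier of fatty acids, by 2.22. Clec10a fell by 2.97, the folate receptor Folr2 by 2.71, Apoe by 1.34 and C1qc by 0.91 (0.0645 with the block). Msr1, scavenger receptor A, and Treml4 rose, by 1.30 and 1.62. Of the 13 called members 6 were called in all 6 fits with 1 array left out. The median of the list was 0.06 with equal array medians, with 4 members called lower and 6 higher, and there C1qc was higher in place of lower.

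Lysosomal and cholesterol efflux genes fell in part. In the lysosome list 12 of 32 members fell and 1 rose (median -0.72). Atp6v0d2, a subunit of the proton pump, lay at 13.65, 13.24 and 12.21 in naive and 9.97, 9.97 and 9.03 in re-stimulated cells and fell by 3.38 ± 0.45 (adjusted p = 0.0122). Ctsk, cathepsin K, fell by 1.91, Atp6v0a1 by 1.75 and Gpnmb by 1.51, and Ctsc, cathepsin C, was the one that rose (1.92). Among 17 genes of cholesterol efflux and LXR targets 7 fell and none rose (median -0.69). Lipa, the lysosomal acid lipase, went from 15.13, 15.47 and 15.21 to 12.99, 13.18 and 12.91 and fell by 2.25 ± 0.18 (adjusted p = 0.00399), Nceh1, which hydrolyses cholesterol esters, fell by 2.07 and the exporter Abcg1 by 1.20. The medians of both lists turned with equal array medians, to 0.22 and 0.40, with 1 and 1 members called lower, and under that scaling Lgmn and Atp6v1a, which fell by 0.82 and 0.99, were higher. With the slide block 6 lysosome and 5 efflux genes fell, and Lgmn and Atp6v1a were not called (adjusted p = 0.0725 and 0.069). Leaving out 1 array gave 3 to 17 falls among lysosome and 1 to 8 among efflux genes, the most without the third naive array.

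**Figure D3:**
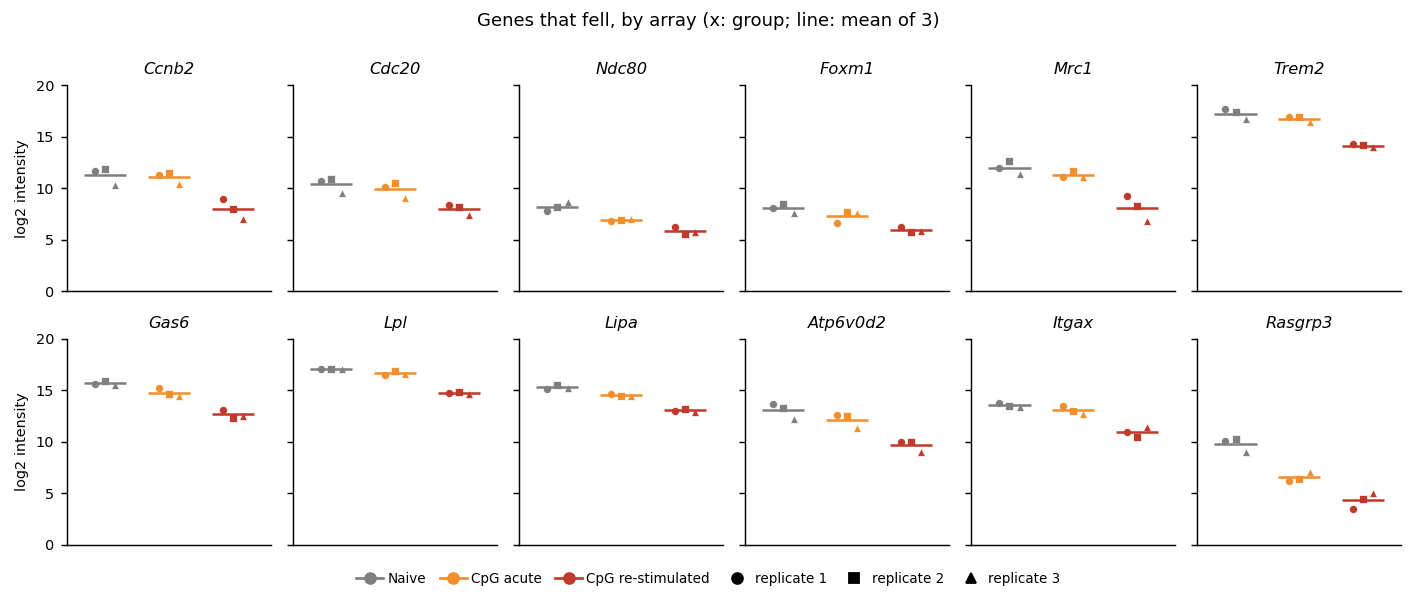
Log2 normalised intensity of 12 genes that fell, on each array of naive, CpG acute and CpG re-stimulated cells (circle, square and triangle for replicates 1, 2 and 3, short line for the mean). Trem2 lay at 17.25 on average in naive, 16.74 in acute and 14.14 in re-stimulated cells. For each gene all re-stimulated arrays are below all naive arrays, as for every called probe that fell.

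Of 21 costimulatory and surface molecules 6 rose and 5 fell. The balance depends on the scaling, since with equal array medians 8 rose and 1 fell, and with 1 array left out 1 to 9 rose and 1 to 7 fell. Cd69, an early activation marker, rose by 6.28, Cd40, the receptor for T cell help, by 3.88, Tnfrsf9 (4-1BB) by 3.01, the integrin Itgal by 2.66 (without the third naive array Cd69 by 7.46, Cd40 by 4.59 and Itgal by 3.28), and the inhibitory ligands Cd274 (PD-L1) and Pdcd1lg2 (PD-L2) by 1.88 and 1.33 (Pdcd1lg2 0.0777 with the block). Cd83 lay at 11.83, 12.57 and 12.91 in naive and 9.48, 9.18 and 10.47 in re-stimulated cells and fell by 2.73 ± 0.43 (adjusted p = 0.0175). Itgax (CD11c) fell by 2.58, Cd80 by 1.24, and the inhibitory receptor Cd200r1 by 1.82 with its relative Cd200r4 by 1.28 (0.0509 with the block). The costimulatory molecules did not share a direction, since Cd40 rose where Cd80 fell. In antigen presentation 1 of 16 class I genes rose, the immunoproteasome subunit Psmb8 by 0.84 (0.0872 with the block), and of 11 class II genes March1, the ubiquitin ligase that removes class II from the surface, rose by 1.88 while H2-Aa fell by 1.22 (adjusted p = 0.0985 with the block) and Ifi30, a lysosomal thiol reductase, by 1.20. Of 35 chemokine and cytokine receptors 5 rose, Ccrl2 by 2.59, Il15ra by 2.91, Il1rap by 2.06, Il4ra by 1.42 and Tnfrsf1b by 0.93, and 2 fell, Il6ra by 1.22 and Csf3r, which was higher with equal array medians, by 1.03. Il1rap and Tnfrsf1b were not called with the block (adjusted p = 0.0708 and 0.0714), and with 1 array left out 1 to 8 receptors rose and 0 to 8 fell. Over all genes 6.56% rose and 8.24% fell. Neither the rises of class I genes nor the falls of receptors were more frequent than that. Psmb8 was not called in all of the fits with 1 array left out.

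The values above place the re-stimulated cells against cells at rest, and the acute arrays show where the second exposure differed from a first. Of 25739 probes tested between CpG acute and CpG re-stimulated cells, 916 (3.56%) were called, 477 higher and 439 lower in re-stimulated cells, and 1177 were called with the slide as a block. Without the third acute array 2037 were called, and without each of the other arrays 43 to 212. By gene 218 of 13250 were higher and 277 lower, or 333 and 354 with the block. The comparison shares its re-stimulated arrays with the one above. Of 28 inflammatory cytokines 0 were higher and 5 lower in re-stimulated cells. Il6 averaged 14.76 in acute and 15.44 in re-stimulated cells (0.67, adjusted p = 0.584), Il1b 15.66 and 15.75, and Ifnb1 9.87 and 9.81. Tnf lay at 17.34, 17.09 and 18.05 in acute and at 15.74, 15.06 and 16.34 in re-stimulated cells (-1.78, adjusted p = 0.0595, and 0.0255 with the block), and Il12b at 15.14, 14.63 and 14.88 and 12.82, 11.09 and 13.79 (-2.32, 0.1, and 0.0759 with the block). Both were lower on every re-stimulated array than on every acute array, and Tnf passed the test with the block alone. How many of all tested probes separate so was not counted for this comparison, and the separation is no test.

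Some genes stood higher after the second exposure. Arg1, the arginase of alternatively activated macrophages, lay at 3.90, 3.27 and 1.76 in acute cells, on no array above background, and at 9.87, 12.18 and 8.65 in re-stimulated cells, at least 129-fold higher (limma adjusted p = 0.0245). Slpi lay at 13.66, 13.84 and 13.14 and 16.68, 16.99 and 17.53 (a difference of 3.52 ± 0.29, SE, adjusted p = 0.01). Hp lay at 12.71, 13.43 and 11.59 and 15.77, 17.07 and 16.45 (a difference of 3.86 ± 0.53, adjusted p = 0.026). The acute means of Slpi and Hp lay between their naive and re-stimulated means. Tnfrsf9 was higher by 2.57, Saa3 by 1.57 (adjusted p = 0.0445, and 0.0505 with the block) and Ass1 by 1.48. Lcn2 (4.41, adjusted p = 0.0635) and Cd38 (2.75, 0.0662) did not pass.

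Other genes were lower after the second exposure than after the first. Among them Vcam1, an adhesion molecule, lay at 10.37, 10.55 and 8.80 in acute and 4.82, 4.65 and 6.66 in re-stimulated cells (a difference of -4.53, adjusted p = 0.031; 0.0574 with the block). Cd83 lay at 14.40, 14.73 and 13.39 and 9.48, 9.18 and 10.47 (adjusted p = 0.0155), with its acute mean above and its re-stimulated mean below the naive mean. Cx3cl1, Il15 and Csf1 followed with acute means of 11.31, 10.79 and 10.99 against re-stimulated means of 7.62, 7.46 and 7.81, near the naive means of 8.01, 8.06 and 6.99. Adjusted p-values of these 3 differences were 0.0222, 0.016 and 0.00914. Cish, an inhibitor of STAT5 signalling, had an acute mean of 10.67 and a re-stimulated mean of 7.61 (0.039). Lower too were Irf1 (15.67 against 13.51), Il18 (9.94 against 7.75), Il27 (13.06 against 10.85), Icam1 (12.77 against 10.71), Nfkb1 (12.66 against 11.01), Tnfaip3 (15.02 against 13.71; adjusted p = 0.0453, and 0.0714 with the block) and the CXCR2 ligands Cxcl1 (15.95 against 13.81; 0.0454, and 0.0732 with the block) and Cxcl2 (15.67 against 13.70). Cxcl3, of the same group, had 13.73 and 13.36 and did not pass.

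**Figure D4:**
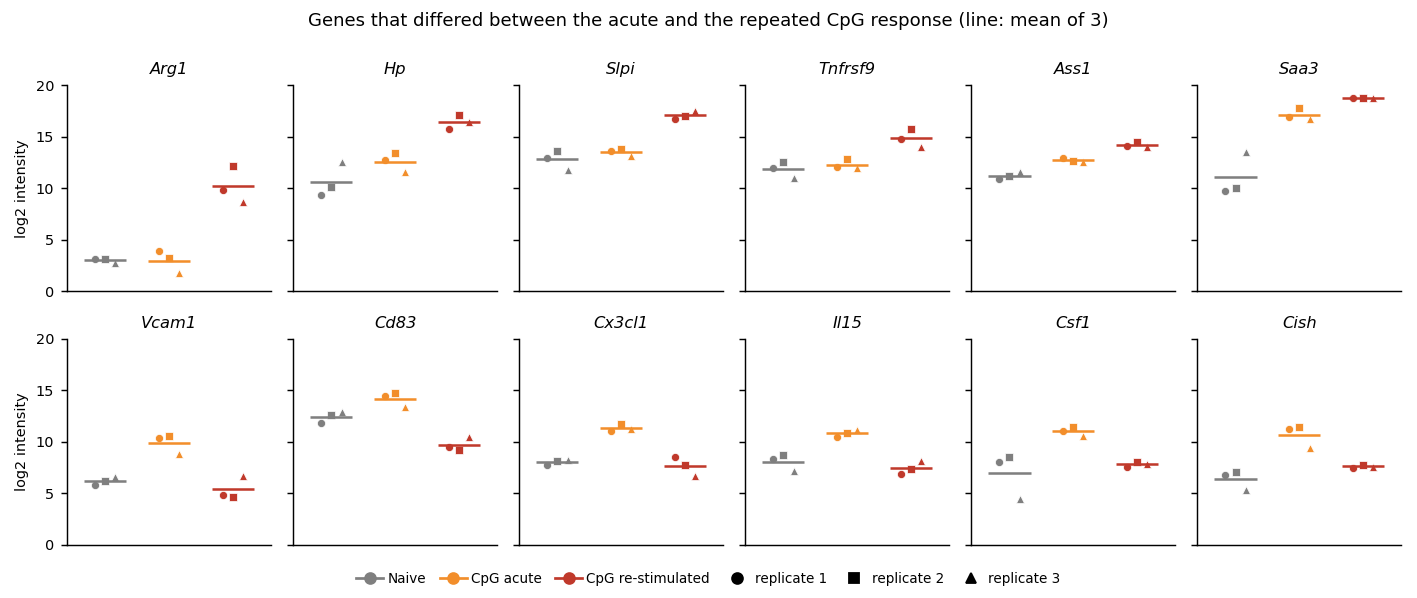
Log2 normalised intensity of 12 genes that differed between CpG acute and CpG re-stimulated cells, with the naive arrays beside them (circle, square and triangle for replicates 1, 2 and 3, short line for the mean). Slpi averaged 12.81 in naive, 13.55 in acute and 17.07 in re-stimulated cells, while Cd83 averaged 12.44, 14.17 and 9.71.

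The mitosis and clearance genes were also compared between the exposures. Acute minus naive, the median change of the mitosis list was -0.45, beside -1.92 for re-stimulated minus naive, 2 comparisons that share the naive arrays. Set directly against acute cells, 8 of 45 mitosis genes were lower in re-stimulated cells (12 with the block) and the median difference was -1.38. Ccnb2 averaged 11.06 in acute and 7.96 in re-stimulated cells (adjusted p = 0.039). DNA replication genes had acute and re-stimulated medians of -0.87 and -0.91 against naive. In the scavenger list 6 members were lower than in acute cells (10 with the block), among them Mrc1 (11.29 against 8.12), Trem2 (16.74 against 14.14), Gas6 (14.76 against 12.64), Lpl (16.63 against 14.71) and Clec10a (8.15 against 5.53), and Lipa and Atp6v0d2 were lower as well (14.49 against 13.03 and 12.14 against 9.65). In glycolysis the medians against naive were 0.05 for acute and 0.72 for re-stimulated cells, and no member differed between them past the test.

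Re-stimulation through TLR2 was set beside re-stimulation through TLR9 as a comparison of the ligands. Of 25208 probes 0 (0%) passed limma's test between Pam3CSK4 and CpG re-stimulated cells, while 1089 had an unadjusted p below 0.05 and the smallest adjusted p was 0.0718. With the slide as a block 124 probes passed, and by gene 64 of 13069 were higher and 2 lower in CpG re-stimulated cells. The count is sensitive to other choices too, with 37 probes in 1 fit over all groups and 37 without the third Pam3CSK4 array. Under the block 19 of 47 members of the type I interferon response were higher in CpG re-stimulated cells and none lower. Without the block the median difference of this list was 1.36 and none passed.

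Ifnb1 itself lay at 10.37, 9.04 and 10.03 in CpG and at 3.55, 3.38 and 4.71 in Pam3CSK4 re-stimulated cells, a difference of 5.93 ± 0.47 (adjusted p = 0.0718, and 0.029 with the block). Cxcl10 lay at 16.09, 16.10 and 17.25 and 10.04, 10.44 and 12.83 (a difference of 5.38 ± 0.75, 0.0818 and 0.029 with the block). Rsad2 lay at 14.19, 14.32 and 14.72 and 8.31, 9.20 and 10.41 (a difference of 5.11 ± 0.51, 0.0718 and 0.029 with the block). The CpG and Pam3CSK4 arrays did not overlap in any of the 3. The share of all tested probes without overlap was not counted for this comparison, so no weight is put on it. Ifit1 had a difference of 4.5 (0.0347 with the block), Mx2 of 4.35 (0.0379), Oasl1 of 4.23 (0.0347), Cmpk2 of 4.21 (0.0379) and Gbp5 of 4.09 (0.0356). In Pam3CSK4 re-stimulated cells the means of Ifit1 (9.50), Rsad2 (9.31), Mx2 (8.24) and Cmpk2 (8.31) were below their naive means of 10.38, 11.04, 9.31 and 10.30 (limma adjusted p = 0.378, 0.132, 0.234 and 0.0992 for Pam3CSK4 re-stimulated against naive). Outside the list Il19 (3.38), Edn1 (3.05) and Tnfsf15 (2.45) passed with the block, and so did Tlr3, above background on no Pam3CSK4 re-stimulated array and at least 2.83-fold higher after CpG.

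Other induced genes were measured at these levels after the ligands. Il6 averaged 15.44 after CpG and 12.70 after Pam3CSK4, Il1b 15.75 and 15.29, Ptgs2 13.90 and 12.32, Socs3 15.71 and 14.77, Slpi 17.07 and 17.69, and Saa3 18.72 and 18.72. Saa3 had this value on every array of both groups, as the quantile scale fixes it by rank, so its difference is no test. None of the other differences passed with or without the block. With 3 arrays a group that does not show that the levels are alike. Il12b lay at 12.82, 11.09 and 13.79 after CpG and 7.77, 7.5 and 6.06 after Pam3CSK4 (a difference of 5.45 ± 0.75, 0.0818 and 0.0832 with the block).

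**Figure D5:**
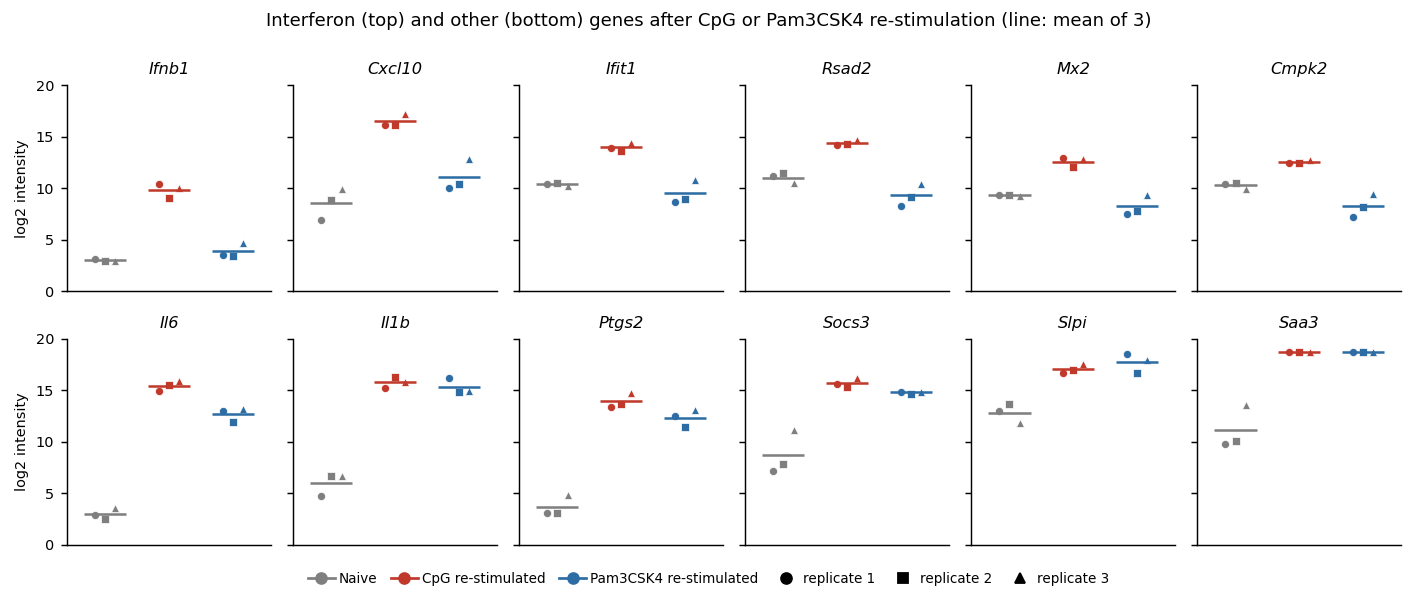
Log2 normalised intensity of 6 interferon-related genes (top row) and 6 other induced genes (bottom row) on each array of naive, CpG re-stimulated and Pam3CSK4 re-stimulated cells (circle, square and triangle for replicates 1, 2 and 3, short line for the mean). Ifnb1 averaged 3.00, 9.81 and 3.88 in these groups, and Slpi 12.81, 17.07 and 17.69.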

How the data were processed

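RNA of BMDM was labelled with Cy3 and hybridised to 1-colour Agilent mouse arrays (1 sample per array). The authors deposited log2 values made with limma's RMA background correction and quantile normalisation for 25 of the 27 arrays, and scanner intensities per the file headers for each array. Columns titled as naive, CpG acute, CpG re-stimulated and Pam3CSK4 re-stimulated were used. Probes entered a comparison if the scanner software marked them as well above background on 2 or more arrays of a group being compared. Control spots were left out. Gene names come from the array design, and 31220 of 55681 probes matched a RefSeq gene. A gene is represented by its tested probe of highest mean. Of 4067 genes with more than 1 tested probe, 692 had some but not all probes called and 9 had probes called in both directions.

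Differences were tested with limma 3.58.1 (lmFit and eBayes, R 4.3.3) with Benjamini-Hochberg adjustment over all probes tested, and called at an adjusted p below 0.05 and a fold of 1.5 or more. Precision is limited by the number of arrays, and no spot was saturated. The deposited log2 values could be rebuilt from the scanner intensities to a median absolute difference of 0.00767. A gene below background on all arrays of a group is given as a bound, its bright group's mean over the higher, on each dim array, of the probe's own value and the lowest value above background. Replicate numbers, which are those of the slides, paired the samples, since the deviations from the group means of same-numbered naive and re-stimulated arrays correlated at 0.117, 0.291 and 0.214 over 28176 probes. Its adjusted p is given for each named gene that it moves across the threshold in this comparison. The fit was checked on simulated data. The genes named are members of fixed lists and the 15 largest rises and falls among called probes whose groups do not overlap. The members and lists were chosen with earlier results of these data known. Some members are counted in their lists but not reported here by name. Other background corrections, scalings, filters, a fit of all 9 groups and leaving out each array were tried.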

Additional observations from a re-analysis of the deposited data

How the results depend on the processing

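For naive against CpG re-stimulated cells the count of called probes was 3691, and alternatives moved it. The replicate block gave 2517 probes, of which 2144 were shared, with 1242 higher and 1275 lower. One fit of all 9 groups gave 5889 (2972 higher, 2917 lower), Agilent's processed signal at the 75th percentile 5749 (3055 lower), array medians in place of quantile normalisation 2431 (494 lower) and no filter on dim probes 1646 (924 higher, 722 lower). Leaving out 1 array gave 704 to 7030 called, 400 to 3316 higher and 304 to 3714 lower. For CpG acute against re-stimulated cells the 916 calls became 1963 in the fit of all groups, 147 with no filter and 43 to 2037 with 1 array left out. For Pam3CSK4 against CpG re-stimulated cells the 0 calls became 124 with the replicate block, 37 in the fit of all groups, 94 with normexp, 100 with array medians, 22 with the processed signal, 17 with probes above background on all 3 arrays, and 0 to 37 with 1 array left out. The cause was not tested. Of 3315 values of the 237 called genes named or listed, 2350 kept direction and call, 955 kept direction only and 10 changed sign, all with array medians, where the difference, re-stimulated minus naive, was 0.1129 for Atp6v1a, 0.1957 for C1qc, 0.06324 for Csf3r, 0.03836 for Cyld, 0.02726 for Incenp, 0.2573 for Lgmn, 0.453 for Lyz1, 0.2025 for Pcna, 0.118 for Pfkfb4 and 0.0355 for Siglech. Of 6292 values of the 451 genes not called, 483 passed. The fold threshold removed no call. Genes near background have bounds only, and 3 arrays a group limit the rest.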

Other observations

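Of 12 neutrophil markers the third naive array was the lowest naive array for 12, and the third re-stimulated array the lowest of its group for 10, the other 2 being S100a8 (14.20, 14.62 and 14.83) and Camp (10.57, 10.65 and 10.79). The distances differed between markers, with Elane at 12.29, 12.23 and 11.83 in naive and 11.57, 11.52 and 11.14 in re-stimulated cells, and the genes that follow were chosen after their values were seen. S100a9, a calcium-binding protein of neutrophils and monocytes, lay at 15.63, 16.20 and 4.57 in naive and 14.95, 15.57 and 5.65 in re-stimulated cells. Ly6g, a surface marker of mouse neutrophils, lay at 8.91, 9.60 and 2.54 and 8.74, 10.23 and 3.81, and Ltf, the granule protein lactoferrin, at 10.86, 11.43 and 2.09 and 10.13, 10.39 and 3.88. In 9 genes the third array was at least 4 log2 units below both others in both groups, the other 6 being Chi3l3, Ly6a, Stfa1, F13a1, Cck and Gm6522. None of these 9 passed limma between the groups. They were chosen for a wide spread within each group, which such a test can hardly pass, so no conclusion is drawn.

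Marco, a scavenger receptor, lay at 9.99, 11.42 and 17.97 on the naive arrays and at 18.82, 18.82 and 18.82 on the re-stimulated arrays (5.69, adjusted p = 0.113), where it was the brightest probe. Without the third naive array it rose by 8.11 (adjusted p = 0.00058). Lum, the fibroblast proteoglycan lumican, was above background on none of the naive and all of the re-stimulated arrays, with 2.28, 1.96 and 1.73 in naive and 6.11, 7.17 and 5.46 in re-stimulated cells, at least 16.8-fold higher (adjusted p = 0.00689). In CpG acute cells it lay at 1.61, 2.64 and 2.98, on no array above background. Csf1r, the receptor of the growth factor CSF1 used for differentiation, lay at 18.07, 18.04 and 17.87 and 17.64, 17.86 and 17.82 (-0.23, adjusted p = 0.382).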
